A study of Homo sapiens with 20 samples.

Results

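The DNA replication and S-phase genes described here are 47 protein-coding genes whose products license replication origins, unwind and copy DNA, supply nucleotides, load chromatin behind the fork or drive entry into S phase. They were chosen by symbol, through the Ensembl identifiers of the deposited count files, and all 47 were found among the 58233 identifiers. The study asked why some cancer cell lines need ADAR1, the RNA-editing enzyme that converts adenosine to inosine in double-stranded RNA and is encoded by *ADAR*. HCC366 (lung adenosquamous carcinoma), NCI-H1650 (lung adenocarcinoma) and NCI-H196 (variant small cell lung cancer) are named there as ADAR1-dependent lines, and A549 (lung adenocarcinoma) as a line that is not. All cells carried Cas9 and 1 sgRNA from a lentiviral vector, against *GFP* as control or against *ADAR*, with 2 sgRNAs per target named sg1 and sg2. RNA of HCC366, NCI-H1650 and NCI-H196 was taken 5 days after transduction with *GFP* or *ADAR* sgRNAs and no treatment. A549 cells with *GFP* or *ADAR* sgRNAs were treated for 24 h, either with vehicle (sterile water) or with IFN-β at 10 ng/mL. There were thus 10 conditions and 20 libraries, 2 per condition, which differ in the sgRNA. The cells were selected as transduced populations and not as single clones, so unedited cells can remain. Errors below are the spread between 2 sgRNAs and not between repeats of the experiment.

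Replication starts in G1, when ORC, CDC6 and CDT1 load the MCM2-7 helicase onto origins. CDC45 and the GINS complex then turn the helicase on at the start of S phase, DNA polymerases copy both strands with the sliding clamp PCNA, and RPA covers the exposed single strands. Most of these genes are transcribed in a wave at the G1/S boundary under E2F transcription factors, which cyclin E (CCNE1, CCNE2) and the phosphatase CDC25A help to release. Their summed RNA can therefore vary with the share of cells that are cycling, which these data do not measure.

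Reads on genes ranged from 62679 to 19520189 per library. The lowest count belonged to the NCI-H196 *GFP* sg2 library, where the 47 genes held 295 reads in all, 3 of them had none, and 1 read was worth 14.7 CPM (counts per 1000000 reads on genes, with library sizes scaled by TMM). In the HCC366 *ADAR* sg2 library, 85.6% of alignments were not unique, against 22.5% to 59.1% in the other libraries. *ADAR* itself was at 436 and 437 CPM with *GFP* sgRNAs and at 161 and 250.1 CPM with *ADAR* sgRNAs in vehicle-treated A549 cells, and with IFN-β at 1219 and 1193 and at 691 and 895 CPM. It was at 621 and 760.5 CPM with *GFP* and 296 and 268 with *ADAR* sgRNAs for NCI-H1650, 664 and 865 against 564 and 482 for NCI-H196 and 804 and 1101 against 571 and 490.2 for HCC366. In edgeR's quasi-likelihood test its log2 fold change after *ADAR* knockout (KO) was −1.08 in A549 with vehicle (adjusted p = 9.98e-05), −0.60 with IFN-β (0.00148), −1.29 in NCI-H1650 (6.63e-14), −0.41 for NCI-H196 cells (0.00165) and −0.84 in HCC366 (0.208). An edited transcript can still be made and counted, so these levels do not measure the protein. Of the markers checked against the labels, the keratins *KRT8* and *KRT18* had medians of at least 831 CPM in A549, HCC366 and NCI-H1650 and of at most 47.1 CPM in NCI-H196. The other epithelial markers checked, *EPCAM* and *CDH1*, had medians of 107 and 773 CPM in NCI-H1650 but 0.222 and 29.6 CPM in A549. In HCC366 they were at 1.36 and 6.5 CPM, and in NCI-H196 both were at 0.112 CPM. The mesenchymal marker *VIM* had a median of 671 CPM in A549. The squamous marker *KRT5* had a median of 0.825 CPM in HCC366, labelled adenosquamous. The neuroendocrine gene *NEUROD1* had no read in NCI-H196, labelled variant small cell, whose median was 2283 CPM for *VIM* and 2799 CPM for *COL1A1*. The leukocyte marker *PTPRC* stayed at or below 3.05 CPM in all 4 lines.

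With *GFP* sgRNAs, the 47 genes spanned a wide range of levels per transcript length. *RRM2*, the small subunit of ribonucleotide reductase, stood at 178 CPM per kb for HCC366, 133 for NCI-H1650, 150.4 for NCI-H196 and 103 in vehicle-treated A549. *PCNA*, the sliding clamp, stood at 151, 118, 164 and 277 CPM per kb in the same order, and both genes were among the 4 highest of the 47 in every line. The median over the 47 genes was 32.7, 25.4, 22.8 and 25.8 CPM per kb. *GINS3*, a subunit of the GINS complex, was near the bottom, at 4.63 CPM per kb in HCC366 and 6.82 in A549. *CCNE2*, one of the genes for cyclin E, was at 1.29 CPM per kb in A549, the lowest of the 47 there, and at 7.15 in HCC366. *TK1*, the thymidine kinase of the salvage pathway, was the highest of the 47 in NCI-H1650, at 157 CPM per kb.

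The promoters of these genes carried E2F-type motifs more often than promoters in general. RefSeq promoter sequences (GRCh38.p14; 250 bases before and 50 after the start of transcription) were matched for 39 of the 47 genes. The letters TTTCCCGC, TTTCGCGC, TTTGCCGC and TTTGGCGC were searched on both strands, and the second and the fourth can overlap each other on opposite strands. At least 1 of the 4 occurred in 20 of the 39 promoters (51.3%), against 3.33% of all 27305 promoters of that table. The CCAAT box (CCAAT) occurred in 56.4% of the 39 and 35.7% of all promoters. GGGCGG, the GC box, occurred in 74.4% and 44.6%. TTTGAA, the core letters of the CHR element of late cell cycle genes, occurred in 1 of the 39 (2.56%) and in 15.4% of all promoters. These matches are descriptions of letters and not of bound sites.

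The 250 bases before the start are printed 5′ to 3′ for 4 genes with a called interaction of *ADAR* KO and IFN-β, with the E2F-type letters in capitals. *MCM6* and *E2F1* are added as examples with more than 1 match. *MCM7*, which also holds 2, is not printed. *MCM3* lies at chr6:52284743-52284992, minus strand, *PCNA* at chr20:5126623-5126872, minus strand, *RPA1* at chr17:1829755-1830004, plus strand, *CCNE1* at chr19:29811741-29811990, plus strand, *MCM6* at chr2:135876444-135876693, minus strand and *E2F1* at chr20:33686386-33686635, minus strand. In *MCM6*, 4 matches form 2 stretches in which a pair of motifs overlaps. *E2F1* holds 2 matches close to its start, *PCNA* and *MCM3* hold 1 each, and *RPA1* and *CCNE1* hold none of these exact letters in this window.
MCM3: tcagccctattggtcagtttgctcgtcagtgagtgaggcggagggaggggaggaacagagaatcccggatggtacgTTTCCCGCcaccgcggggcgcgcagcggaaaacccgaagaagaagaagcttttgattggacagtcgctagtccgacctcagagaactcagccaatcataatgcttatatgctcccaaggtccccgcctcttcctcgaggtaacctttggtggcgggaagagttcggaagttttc
PCNA: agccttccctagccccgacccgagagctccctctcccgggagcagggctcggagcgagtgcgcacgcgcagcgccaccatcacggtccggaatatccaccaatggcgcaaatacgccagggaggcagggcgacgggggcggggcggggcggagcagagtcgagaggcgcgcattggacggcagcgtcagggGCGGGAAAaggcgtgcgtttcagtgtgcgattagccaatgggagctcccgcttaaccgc
RPA1: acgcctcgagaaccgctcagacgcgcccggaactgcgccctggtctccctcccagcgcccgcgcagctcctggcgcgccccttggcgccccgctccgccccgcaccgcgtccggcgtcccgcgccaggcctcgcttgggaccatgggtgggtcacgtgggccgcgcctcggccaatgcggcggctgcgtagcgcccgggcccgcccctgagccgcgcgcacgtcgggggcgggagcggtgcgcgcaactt
CCNE1: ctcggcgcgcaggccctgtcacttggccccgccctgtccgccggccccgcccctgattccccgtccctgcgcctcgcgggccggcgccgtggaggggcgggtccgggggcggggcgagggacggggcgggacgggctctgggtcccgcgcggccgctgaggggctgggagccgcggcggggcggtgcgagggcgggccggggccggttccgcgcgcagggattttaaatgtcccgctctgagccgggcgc
MCM6: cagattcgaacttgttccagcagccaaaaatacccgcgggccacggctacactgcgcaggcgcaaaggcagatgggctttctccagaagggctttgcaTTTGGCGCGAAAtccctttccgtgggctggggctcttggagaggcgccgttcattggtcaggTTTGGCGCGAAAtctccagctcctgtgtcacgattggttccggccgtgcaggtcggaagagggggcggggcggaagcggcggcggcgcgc
E2F1: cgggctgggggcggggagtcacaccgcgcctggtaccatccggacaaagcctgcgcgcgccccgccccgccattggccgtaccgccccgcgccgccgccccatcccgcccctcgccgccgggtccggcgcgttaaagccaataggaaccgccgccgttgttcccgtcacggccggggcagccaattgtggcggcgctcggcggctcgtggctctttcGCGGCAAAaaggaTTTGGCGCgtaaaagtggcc

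The summed level of the 47 genes was lower after *ADAR* KO in IFN-β-treated A549 cells and in NCI-H1650 cells. Levels are CPM scaled by the TMM method within each line. In A549 the sum was 5194 and 4887 CPM (*GFP* sg1 and sg2) with vehicle and 5258 and 5296 with IFN-β. *ADAR* KO cells gave 5078 and 5299 CPM with vehicle and 4527 and 4137 with IFN-β. The 2 *ADAR* KO libraries with IFN-β were the lowest of the 8, and the vehicle libraries of *GFP* and *ADAR* overlapped. In NCI-H1650 the sum was 4639 and 4619.8 CPM with *GFP* and 4253 and 3917 with *ADAR* sgRNAs, without overlap. HCC366 gave 6097 and 5205 CPM with *GFP* and 5276 and 4893 with *ADAR* sgRNAs, which overlapped. NCI-H196 gave 6016 and 4324 CPM with *GFP*, the second from the 295 reads named above, and 5239 and 5516 with *ADAR* sgRNAs, which also overlapped. An exact permutation test of 2 against 2 libraries cannot give p below 0.333, so the sums are described without one. RNA from a whole culture cannot tell fewer cells in S phase apart from less of these RNAs per cell.

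**Figure D1:**
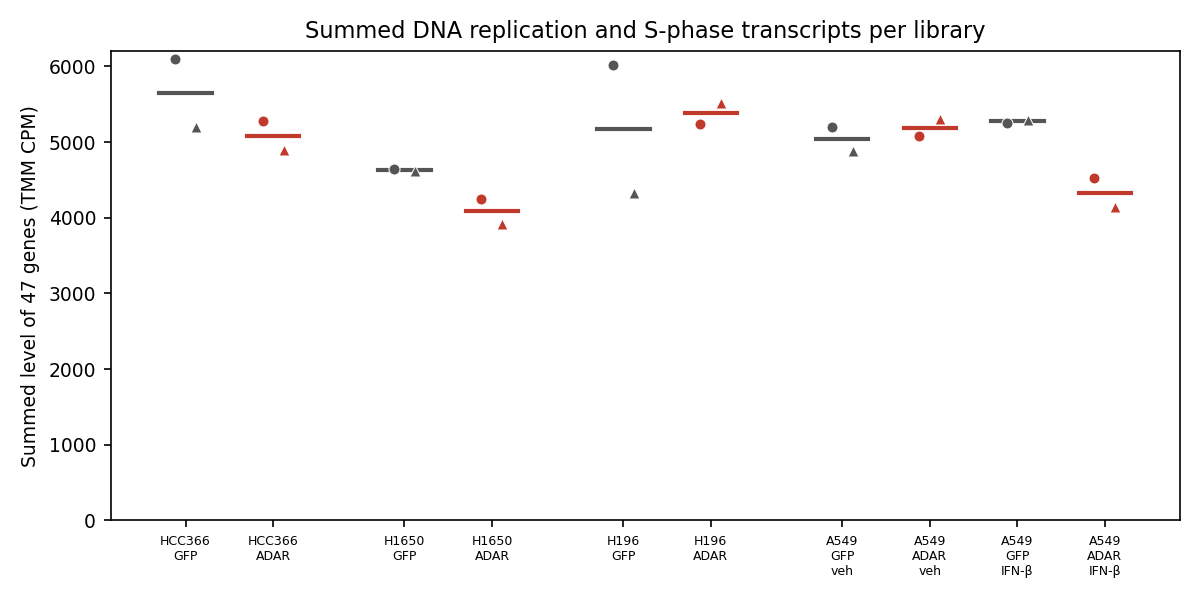
Summed TMM-scaled CPM of the 47 DNA replication and S-phase genes in each of the 20 libraries, by cell line and condition; circles are sg1, triangles sg2 and lines the mean of 2. The 2 A549 libraries with *ADAR* sgRNAs and IFN-β, at 4527 and 4137 CPM, are the lowest A549 libraries.

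In vehicle-treated A549 cells, none of the 47 genes passed the test after *ADAR* KO. All 47 passed the filter on low counts, here and in every other comparison. Background shares were 0.0906% of the 15449 genes tested called lower and 0.0324% called higher (adjusted p below 0.05). DESeq2 also called 0 of the 47. The median log2 fold change of the 47 was 0.042, beside 0.00 over all genes tested, and 15 of the 47 lay below 0. Both *ADAR* libraries were below both *GFP* libraries for 2 of the 47 and above them for 8, beside 17.8% and 18.8% of all genes. The log2 fold changes were 0.080 for *MCM2*, 0.031 for *MCM5*, 0.087 for *CDC6*, −0.11 for *CDC45*, 0.0076 for *PCNA*, −0.077 for *POLE2*, 0.087 for *RRM2*, 0.059 for *TYMS*, −0.17 for *E2F1*, 0.069 for *CCNE1*, 0.72 for *CCNE2* and 0.042 for *CDC25A*.

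With IFN-β, *ADAR* KO lowered 18 of the 47 genes in A549 cells and raised none, where 6.19% of all genes tested were called lower and 10.8% higher. The median log2 fold change was −0.26 (a change of −16.7%), beside −0.014 over all genes, and 45 of the 47 were below 0. Both *ADAR* libraries lay below both *GFP* libraries for 35 of the 47 and above them for 1 (*POLD3*, a subunit of polymerase delta), beside 27.5% and 28.2% of all genes. Against the pooled *GFP* reads, the median log2 ratio of the 47 was −0.20 with *ADAR* sg1 and −0.33 with sg2, with 40 and 45 of 47 below 0. With 1 library left out, fewest of the 47 passed without the *ADAR* sg2 library with IFN-β, where fewer of all genes passed as well. The median without that library was −0.21, beside −0.014 over all genes. With all 20 libraries in one fit there were 3 calls, where 1.67% of all genes were called lower.

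*CCNE1*, which encodes cyclin E1, the partner of CDK2 at S-phase entry, had the largest decrease among the calls. Its level was 37.5 and 30.4 CPM with *GFP* and 19.97 and 20.2 with *ADAR* sgRNAs under IFN-β, without overlap (a change of −40.6%; log2 fold change −0.75, standard error 0.15, adjusted p = 0.000759, edgeR). It stayed past the threshold with each of the 8 A549 libraries left out in turn (adjusted p at most 0.0191, edgeR). *RPA1*, the large subunit of the single-strand binding protein RPA, was at 149 and 148 CPM with *GFP* and 116 and 87.04 with *ADAR* sgRNAs (a change of −31.9%; log2 fold change −0.56, standard error 0.11, adjusted p = 0.00086, edgeR). *PCNA* was at 399 and 345 CPM with *GFP* and 287 and 245 with *ADAR* sgRNAs (a change of −28.5%; log2 fold change −0.48, standard error 0.11, adjusted p = 0.00149, edgeR). For *RPA1* and *PCNA* every *ADAR* library lay below every *GFP* library, and sg2 was lower than sg1.

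Of the 9 origin licensing genes, 4 were called lower and all 9 lay below 0. *MCM5*, a subunit of the MCM2-7 ring, was at 195 and 204 CPM with *GFP* and 155 and 132 with *ADAR* sgRNAs (a change of −28.4%; log2 fold change −0.48, standard error 0.10, adjusted p = 0.00147, edgeR). *MCM2* was at 181 and 213 CPM with *GFP* and 159.5 and 141 with *ADAR* sgRNAs (log2 fold change −0.40, standard error 0.10, adjusted p = 0.00807, edgeR), and *MCM3* at 201 and 216 CPM with *GFP* and 170.5 and 152 with *ADAR* sgRNAs (log2 fold change −0.38, standard error 0.099, adjusted p = 0.00817, edgeR). *CDT1*, the licensing factor that loads the ring, also fell (−0.36, adjusted p = 0.0301, edgeR). *CDC6*, the ATPase that loads the ring with *CDT1*, had a log2 fold change of −0.19 and did not pass (adjusted p = 0.213, edgeR). Its libraries did not overlap either, at 133 and 149.8 CPM with *GFP* and 127 and 121 with *ADAR* sgRNAs.

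Among the other roles, 2 of 6 helicase activation genes (*GINS1* and *GINS2*), 2 of 5 clamp genes (*PCNA* and *RFC4*), 1 of 8 polymerase and primase genes (*POLD1*), 3 of 6 single-strand and Okazaki fragment genes (*RPA1*, *FEN1* and *LIG1*), 2 of 6 nucleotide genes (*TK1* and *UNG*), 2 of 3 chromatin and checkpoint genes (*CHAF1B* and *CLSPN*) and 2 of 4 entry regulators (*CCNE1* and *CDC25A*) were called lower. *POLD1* is the catalytic subunit of polymerase delta, *GINS1* and *GINS2* belong to the active helicase, and *UNG* removes uracil from DNA. *CHAF1B*, which is a subunit of the chromatin assembly factor that deposits histones on new DNA, fell by 0.54 on the log2 scale (adjusted p = 0.0046, edgeR). *RFC4*, a clamp loader subunit, fell by 0.48 (0.0133, edgeR), *CDC25A* by 0.46 (0.0261) and *FEN1*, the flap endonuclease of Okazaki fragments, by 0.41 (0.00751). *CLSPN* (−0.40, adjusted p = 0.0185), *POLD1* (−0.39, adjusted p = 0.00977) and *GINS1* (−0.39, adjusted p = 0.00681) fell by similar amounts (edgeR). The polymerases differed least from 0 as a role, with a median of −0.089. The median was −0.49 for the entry regulators, −0.40 for chromatin and checkpoint genes and −0.29 for licensing genes.

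Several well-known S-phase genes did not pass in this comparison. *RRM2* was at 351 and 319.9 CPM with *GFP* and 305 and 279 with *ADAR* sgRNAs (−0.20, adjusted p = 0.157, edgeR). *TYMS*, thymidylate synthase, had a log2 fold change of −0.17, adjusted p = 0.404, and *CDC45* of −0.16, adjusted p = 0.428 (edgeR). *POLE2*, a small subunit of polymerase epsilon, was at −0.055, adjusted p = 0.868 (edgeR). *E2F1*, a transcription factor of the G1/S wave and itself a target of E2F, was at 53.7 and 65.5 CPM with *GFP* and 47.6 and 46.9 with *ADAR* sgRNAs, without overlap (−0.34, adjusted p = 0.0624, edgeR).

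**Figure D2:**
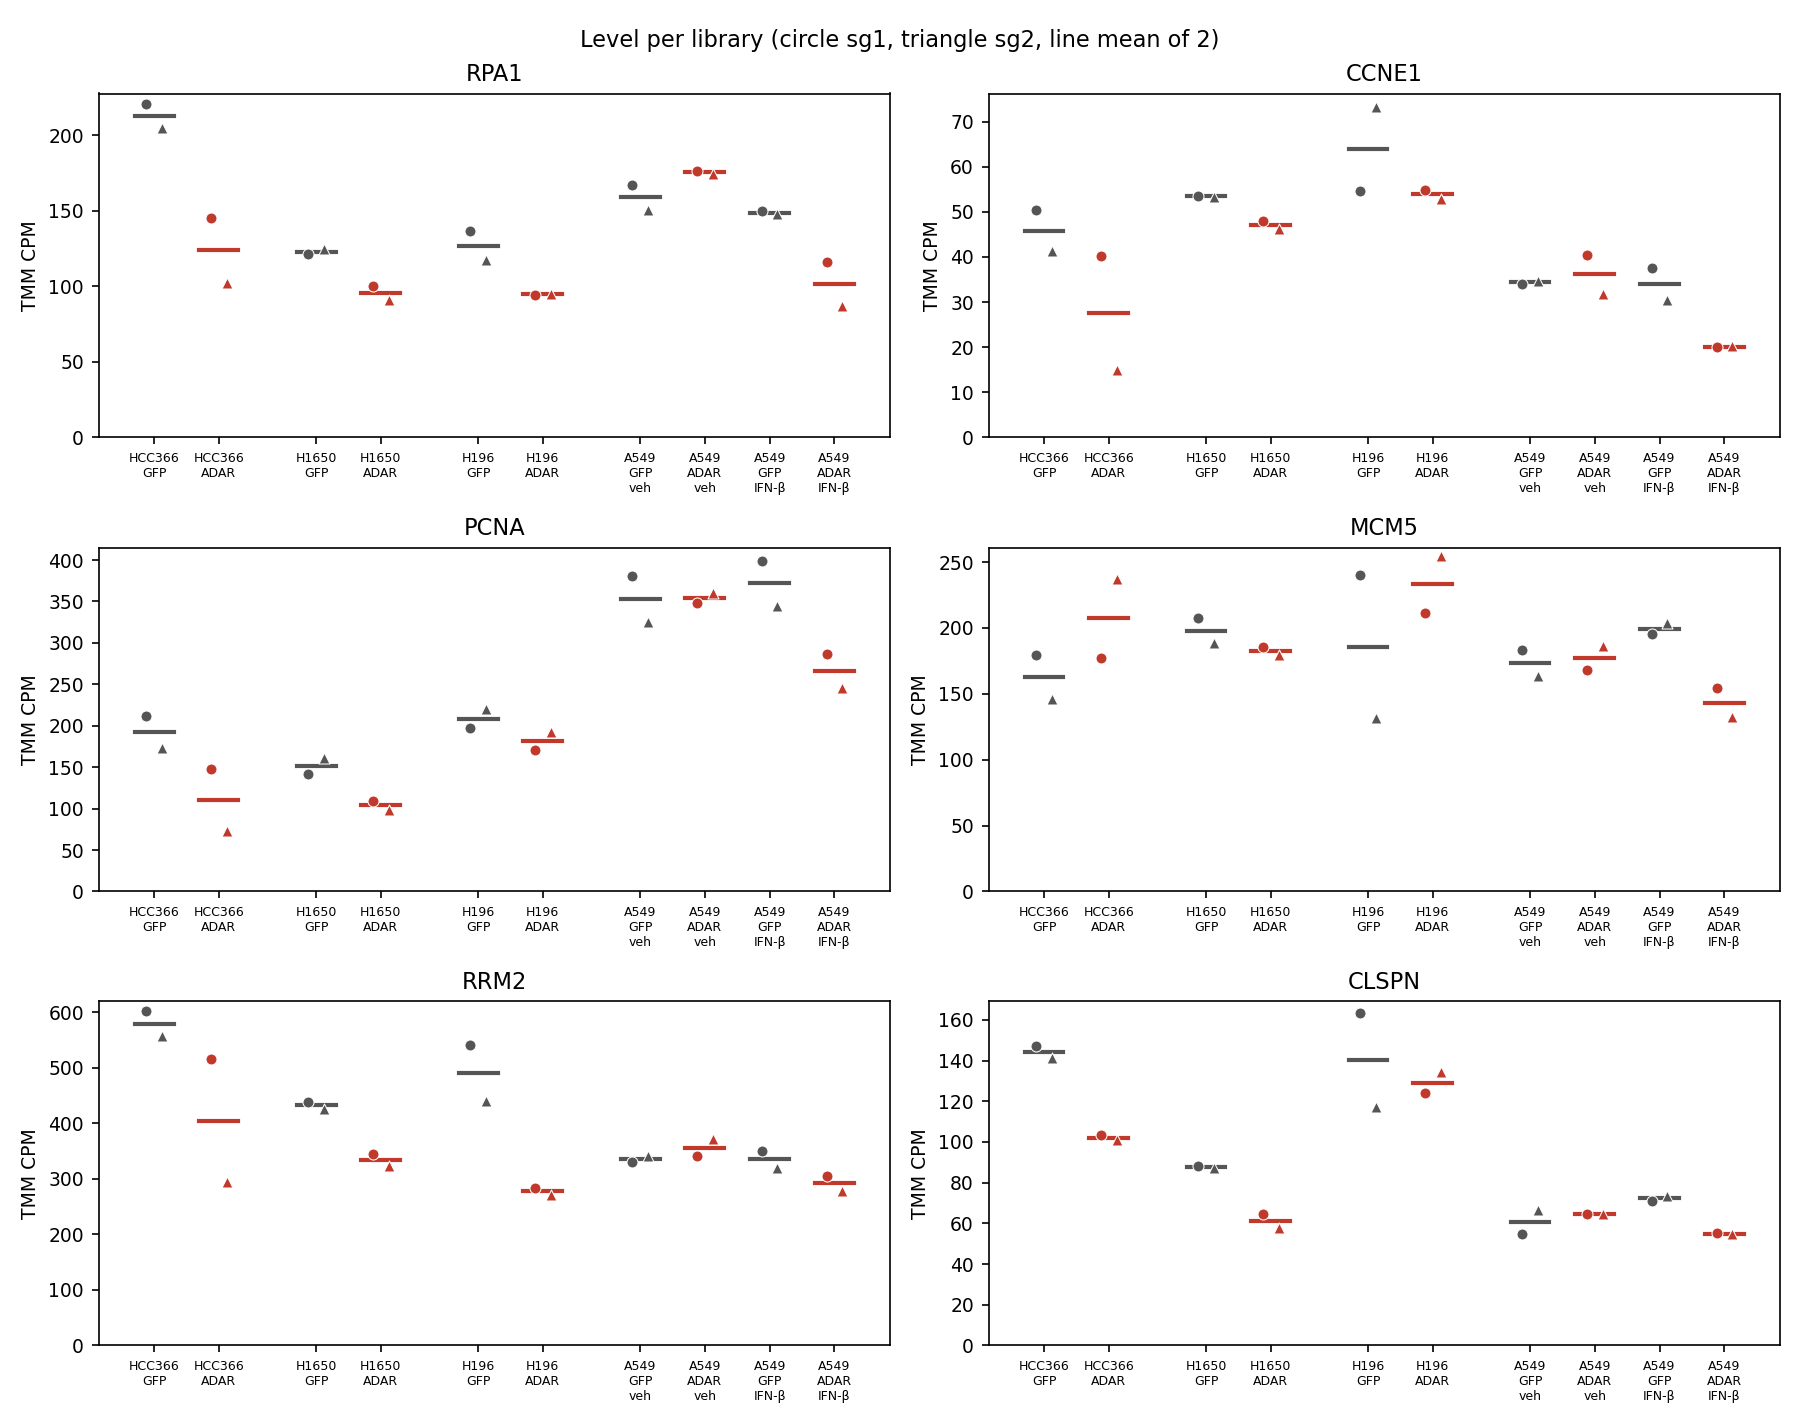
TMM-scaled CPM of *RPA1*, *CCNE1*, *PCNA*, *MCM5*, *RRM2* and *CLSPN* in each library, by line and condition; gray is *GFP*, red is *ADAR*, circles are sg1, triangles sg2 and lines the mean of 2. *RPA1* in A549 with *ADAR* sgRNAs and IFN-β (116 and 87.04 CPM) lies below all other A549 libraries, while the *MCM5* libraries of *GFP* and *ADAR* overlap in HCC366 and NCI-H196.

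The effect of *ADAR* KO differed between IFN-β and vehicle for 5 of the 47 genes, all in the negative direction, where 0.977% of all genes tested had a negative interaction and 4.07% a positive one. The interaction was −0.82, adjusted p = 0.0214 for *CCNE1* (ENSG00000105173, chr19:30302898-30315219), −0.70, adjusted p = 0.00702 for *RPA1* (ENSG00000132383, chr17:1732996-1803376), −0.51, adjusted p = 0.0392 for *MCM5* (ENSG00000100297, chr22:35796127-35821424), −0.49, adjusted p = 0.0361 for *MCM3* (ENSG00000112118, chr6:52128812-52149679) and −0.49, adjusted p = 0.0493 for *PCNA* (ENSG00000132646, chr20:5095599-5107272), all on the log2 scale from edgeR and with gene positions on GRCh37. For these 5 genes the effect with vehicle lay between 0.0076 (*PCNA*) and 0.14 (*RPA1*), and the effect with IFN-β between −0.75 (*CCNE1*) and −0.38 (*MCM3*). The median interaction of the 47 was −0.32, beside 0.0025 over all genes, and 42 of 47 were below 0. Without passing, the interaction was −0.48 for *MCM2*, −0.28 for *CDC6*, −0.058 for *CDC45*, 0.022 for *POLE2*, −0.29 for *RRM2*, −0.23 for *TYMS*, −0.17 for *E2F1* and −0.50 for *CDC25A*. With 1 library left out, the median interaction ran from −0.37 to −0.28. The calls did not hold in every such fit, and the share of all genes with a call changed as well. The number of calls was 16 when the GC and length trends were removed by offsets, where 2.64% of all genes were negative. With all 20 libraries in one fit it was 0, where 0.0154% of all genes were.

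**Figure D3:**
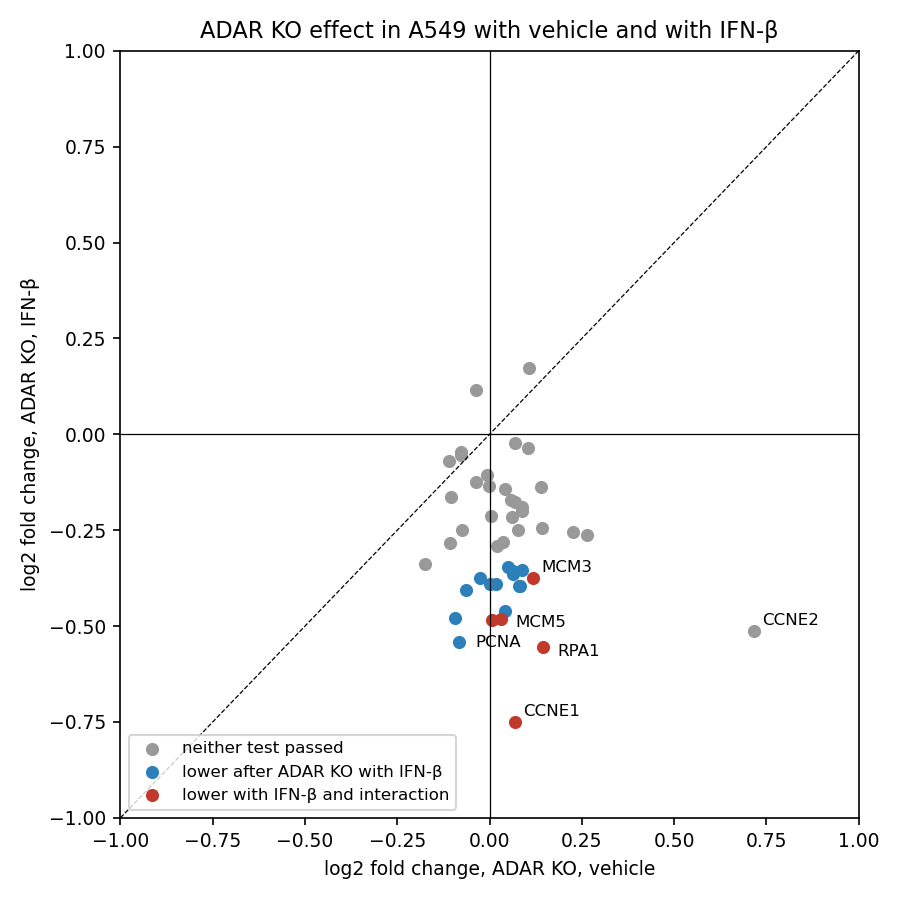
Effect of *ADAR* KO on the 47 genes in A549 cells, as log2 fold change, with vehicle (x axis) against IFN-β (y axis); each point is a gene, red points passed the interaction test, blue points were called lower with IFN-β alone, and the dashed line marks equal effects. 45 of the 47 points lie below 0 on the y axis, and 15 lie below 0 on the x axis.

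With *GFP* sgRNAs, none of the 47 genes passed the test of IFN-β against vehicle in A549 cells, where 1.31% of all genes were called lower and 4.39% higher. DESeq2 called 0 of the 47 as well. The median log2 fold change was 0.069, beside 0.00 over all genes. With offsets for GC content and length it was −0.024 beside −0.083 over all genes, so that the 47 lay above all genes by 0.069 without and 0.059 with the offsets. The log2 fold changes were 0.053 for *MCM2*, 0.20 for *MCM5*, 0.15 for *CDC6*, 0.056 for *CDC45*, 0.076 for *PCNA*, −0.076 for *POLE2*, −0.00081 for *RRM2*, −0.032 for *TYMS*, −0.17 for *E2F1*, −0.025 for *CCNE1*, 0.62 for *CCNE2* and −0.022 for *CDC25A*. In A549 cells with *ADAR* sgRNAs, IFN-β lowered 15 of the 47 and raised none, where 9.04% of all genes were called lower and 15.5% higher, and the median was −0.24. This comparison and that of *ADAR* KO under IFN-β share the *ADAR* libraries with IFN-β. *CCNE1* went from 40.5 and 31.8 CPM with vehicle to 19.97 and 20.2 with IFN-β (log2 fold change −0.84, standard error 0.16, adjusted p = 0.000114, edgeR). *RPA1* went from 176 and 174 to 116 and 87.04 CPM (log2 fold change −0.79, standard error 0.11, adjusted p = 3.29e-06, edgeR). *CDC25A* fell by 0.52 on the log2 scale (adjusted p = 0.00892, edgeR), *GINS2* by 0.43, *GINS4* by 0.41, *RFC4* by 0.41, *FEN1* by 0.41, *TK1* by 0.34, *MCM2* by 0.42, *UNG* by 0.42, *PCNA* by 0.42, *MCM6* by 0.35 and *RRM2* by 0.29. *E2F1* (−0.33, adjusted p = 0.0585, edgeR) and *POLE2* (−0.053, adjusted p = 0.868, edgeR) did not pass. Also not past the threshold were *CDC6* (−0.13), *CDC45* (−0.0015), *TYMS* (−0.26) and *CCNE2* (−0.61). Without *ADAR* sg2 with IFN-β or without *ADAR* sg2 with vehicle, fewer of the 47 and of all genes passed. The medians were then −0.21 and −0.20. The number of calls was 34 with the offsets, where 18.9% of all genes were called lower, and 3 with all 20 libraries in one fit (3.25% of all genes).

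*CCNE2* was measured in A549 from few reads. Its level was 2.38 and 4.52 CPM with *GFP* and vehicle, 6.59 and 5.39 with *ADAR* and vehicle, 6.66 and 4.66 with *GFP* and IFN-β and 3.78 and 4.01 with both *ADAR* and IFN-β. Its interaction was −1.23, adjusted p = 0.116 (standard error 0.45, edgeR), larger in size than that of *CCNE1* and not past the threshold.

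In NCI-H1650 cells, *ADAR* KO lowered 7 of the 47 genes and raised none, where 2.42% of all genes tested were called lower and 6.18% higher. For the 47 the median log2 fold change was −0.18 (a change of −11.9%), beside 0.0066 over all genes, and 42 of 47 were below 0. Both *ADAR* libraries were below both *GFP* libraries for 30 of the 47 and above them for 0, beside 24.3% and 26.2% of all genes. *RFC3*, a clamp loader subunit, was at 45.4 and 46.1 CPM with *GFP* and 28.04 and 30.1 with *ADAR* sgRNAs (a change of −36.5%; log2 fold change −0.66, standard error 0.15, adjusted p = 0.00162, edgeR). *PCNA* was at 141 and 161 CPM with *GFP* and 109 and 98.9 with *ADAR* sgRNAs (log2 fold change −0.54, standard error 0.11, adjusted p = 0.000503, edgeR), and *CLSPN*, the fork checkpoint adaptor claspin, at 88.2 and 87.2 CPM with *GFP* and 64.8 and 57.7 with *ADAR* sgRNAs (log2 fold change −0.52, standard error 0.12, adjusted p = 0.00272, edgeR). None of these 3 overlapped between the groups. *DNA2*, a nuclease and helicase of Okazaki fragments (−0.47, adjusted p = 0.0187), *CDC25A* (−0.41, adjusted p = 0.0228), *RRM2* (−0.37, adjusted p = 0.0103) and *RPA1* (−0.36, adjusted p = 0.0296) were the other calls (edgeR). Leaving out 1 library gave medians from −0.24 to −0.13. In each such fit fewer of the 47 were called lower, and fewer of all genes were as well. With all 20 libraries in one fit 0 of the 47 passed, where 0.0102% of all genes were called lower, and DESeq2 called 4, where 0.489% were.

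Licensing genes held no call in NCI-H1650. *MCM2* was at 211 and 198 CPM with *GFP* and 209.9 and 183 with *ADAR* sgRNAs (−0.055, adjusted p = 0.824, edgeR), which overlap. *MCM5* (−0.12, adjusted p = 0.571, edgeR), *CDC6* (−0.076, adjusted p = 0.74), *CDC45* (−0.090, adjusted p = 0.767), *CCNE1* (−0.18, adjusted p = 0.458), *CCNE2* (−0.37, adjusted p = 0.318), *POLE2* (−0.45, adjusted p = 0.288), *TYMS* (−0.32, adjusted p = 0.206) and *E2F1* (−0.025, adjusted p = 0.93) also did not pass.

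In NCI-H196 cells, *ADAR* KO lowered 9 and raised 1 of the 47 genes, where 7.5% of all genes tested were called lower and 10.3% higher. Their median log2 fold change was −0.14, beside −0.0039 over all genes, with 35 of 47 below 0. Both *ADAR* libraries lay below both *GFP* libraries for 10 of the 47 and above them for 5, beside 15% and 25.6% of all genes. *RRM2* fell most, from 541 and 439.8 CPM with *GFP* to 284 and 271 with *ADAR* sgRNAs (a change of −48.3%; log2 fold change −0.95, standard error 0.10, adjusted p = 1.62e-17, edgeR). *RPA1* was at 136 and 117 CPM with *GFP* and 94.4 and 94.7 with *ADAR* sgRNAs (log2 fold change −0.52, standard error 0.11, adjusted p = 4.98e-05, edgeR). *RRM1*, the large subunit of ribonucleotide reductase, fell by 0.43 on the log2 scale (adjusted p = 0.000596, edgeR). In *RRM2*, *RPA1* and *RRM1* the groups did not overlap. *LIG1*, the ligase of Okazaki fragments (−0.54, adjusted p = 0.00777), *RFC3* (−0.52, adjusted p = 0.00317), *PRIM1*, the catalytic primase subunit (−0.52, adjusted p = 0.0173), *DNA2* (−0.52, adjusted p = 0.0189), *GINS1* (−0.35, adjusted p = 0.0113) and *CLSPN* (−0.30, adjusted p = 0.0278) were also called lower (edgeR), and their groups overlapped. *CHAF1A*, the large subunit of the chromatin assembly factor, was called higher (0.30, adjusted p = 0.0486, edgeR).

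These NCI-H196 calls rest in effect on the *GFP* sg1 library, since *GFP* sg2 held a median of 4 reads per gene over the 47. The calls did not hold without *GFP* sg1, *ADAR* sg1 or *ADAR* sg2, where fewer of all genes passed as well. The median was −0.16 without *GFP* sg2, −0.074 without *ADAR* sg1 and −0.11 without *ADAR* sg2. Without *GFP* sg1 the median turned to 0.47, beside 0.18 over all genes. DESeq2 called 0 of the 47 and 0.07095% of all genes. Its median for the 47 was −0.014, beside 0.049 over all genes. With all 20 libraries in one fit 0 passed, and 0.502% of all genes. *MCM2* (0.25, adjusted p = 0.081, edgeR), *MCM5* (0.038, adjusted p = 0.852), *CDC6* (−0.12, adjusted p = 0.468), *CDC45* (−0.29, adjusted p = 0.208), *PCNA* (−0.090, adjusted p = 0.607), *POLE2* (−0.53, adjusted p = 0.0839), *TYMS* (−0.35, adjusted p = 0.0712), *E2F1* (0.049, adjusted p = 0.806), *CCNE1* (−0.042, adjusted p = 0.888), *CCNE2* (−0.25, adjusted p = 0.174) and *CDC25A* (0.22, adjusted p = 0.333) did not pass.

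In HCC366 cells, none of the 47 genes passed, where 0.0449% of the 11135 genes tested were called lower and 1.2% higher. With DESeq2, 0 of the 47 were called. The median log2 fold change was −0.18, beside −0.0069 over all genes, with a range from −1.94 (*POLE2*) to 0.43 (*E2F1*) and a median standard error of 0.37. Both *ADAR* libraries lay below both *GFP* libraries for 17 of the 47 and above them for 2 (*E2F1* and *CDC25A*), beside 27.3% and 25.1% of all genes. The sgRNAs differed, with a median log2 ratio to the pooled *GFP* reads of −0.088 for *ADAR* sg1 and −0.45 for *ADAR* sg2. Without *ADAR* sg1 many genes passed, among the 47 and among all genes. The median of the 47 was then −0.52, beside −0.017 over all genes. That fit rests on *ADAR* sg2 alone. Over genes of at least 20 CPM, GC content and length accounted for 56.7% of the variance in its deviation from the mean HCC366 level. Without *GFP* sg1, *GFP* sg2 or *ADAR* sg2 the medians were −0.22, −0.29 and −0.065. With all 20 libraries in one fit there were 9 calls (8.45% of all genes called lower). *POLE2* was at 20.9 and 17.8 CPM with *GFP* and 6.998 and 3.23 with *ADAR* sgRNAs (log2 fold change −1.94, standard error 0.51, adjusted p = 0.113, edgeR). *PCNA* was at 212 and 173 CPM with *GFP* and 148 and 72.4 with *ADAR* sgRNAs (log2 fold change −0.81, standard error 0.40, adjusted p = 0.317, edgeR), and *RRM2* at 603 and 556 CPM with *GFP* and 515 and 294 with *ADAR* sgRNAs (log2 fold change −0.52, standard error 0.35, adjusted p = 0.44, edgeR). In *PCNA* and *RRM2*, *ADAR* sg2 was far below *ADAR* sg1. *POLE2* rests on 8 and 5 reads with *ADAR* sgRNAs and 27 and 62 with *GFP*. *MCM5* differed in sign, at 179.7 and 146 CPM with *GFP* and 178 and 237 with *ADAR* sgRNAs (log2 fold change 0.35, standard error 0.33, adjusted p = 0.583, edgeR).

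The remaining named genes in HCC366 had log2 fold changes of 0.22 for *MCM2*, 0.076 for *CDC6*, −0.15 for *CDC45*, −0.096 for *TYMS*, 0.43 for *E2F1*, −0.75 for *CCNE1*, −1.06 for *CCNE2* and 0.25 for *CDC25A*, none past the threshold. *E2F1* was at 124 and 93.1 CPM with *GFP* and 127 and 164 with *ADAR* sgRNAs. *CDKN1A*, the gene of the CDK inhibitor p21 and no member of the group, was at 40.3 and 31.5 CPM with *GFP* and 81.4 and 221 with *ADAR* sgRNAs in HCC366 (log2 fold change 2.09, standard error 0.49, adjusted p = 0.0865, edgeR). Its log2 fold change was 0.22, adjusted p = 0.183 for NCI-H1650, 0.38, adjusted p = 0.00504 for NCI-H196, 0.17, adjusted p = 0.998 in A549 with vehicle and 0.22, adjusted p = 0.218 with IFN-β (edgeR).

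With the 12 libraries of HCC366, NCI-H1650 and NCI-H196 in one fit and the line as covariate, *ADAR* KO lowered 4 of the 47 genes and raised none, where 1.02% of all genes tested were called lower and 4.28% higher. They were *POLE2* (log2 fold change −0.84, standard error 0.23, adjusted p = 0.0375), *RRM2* (log2 fold change −0.60, standard error 0.14, adjusted p = 0.0234), *RPA1* (log2 fold change −0.57, standard error 0.14, adjusted p = 0.0218) and *CLSPN* (log2 fold change −0.46, standard error 0.13, adjusted p = 0.0476), by edgeR's quasi-likelihood test. The median was −0.18, beside −0.0066 over all genes, with 39 of 47 below 0. Not past the threshold were values of 0.15 for *MCM2*, 0.096 for *MCM5*, −0.032 for *CDC6*, −0.17 for *CDC45*, −0.54 for *PCNA*, −0.25 for *TYMS*, 0.12 for *E2F1*, −0.35 for *CCNE1*, −0.51 for *CCNE2* and −0.047 for *CDC25A*. With 1 library left out the median ran from −0.24 to −0.16. The calls did not hold in all of these fits, and the share of all genes called lower changed as well. No gene of the 47 passed the test of a difference in effect between the 3 lines, where 0.701% of all genes did. The smallest adjusted p among the 47 was 0.234, for *POLE2* (edgeR), and DESeq2 called 0. Without HCC366 *ADAR* sg1, more of the 47 and more of all genes passed this test of a difference. In the test over the 3 lines, all 20 libraries in one fit gave 11 calls, where 6.86% of all genes were called lower.

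**Figure D4:**
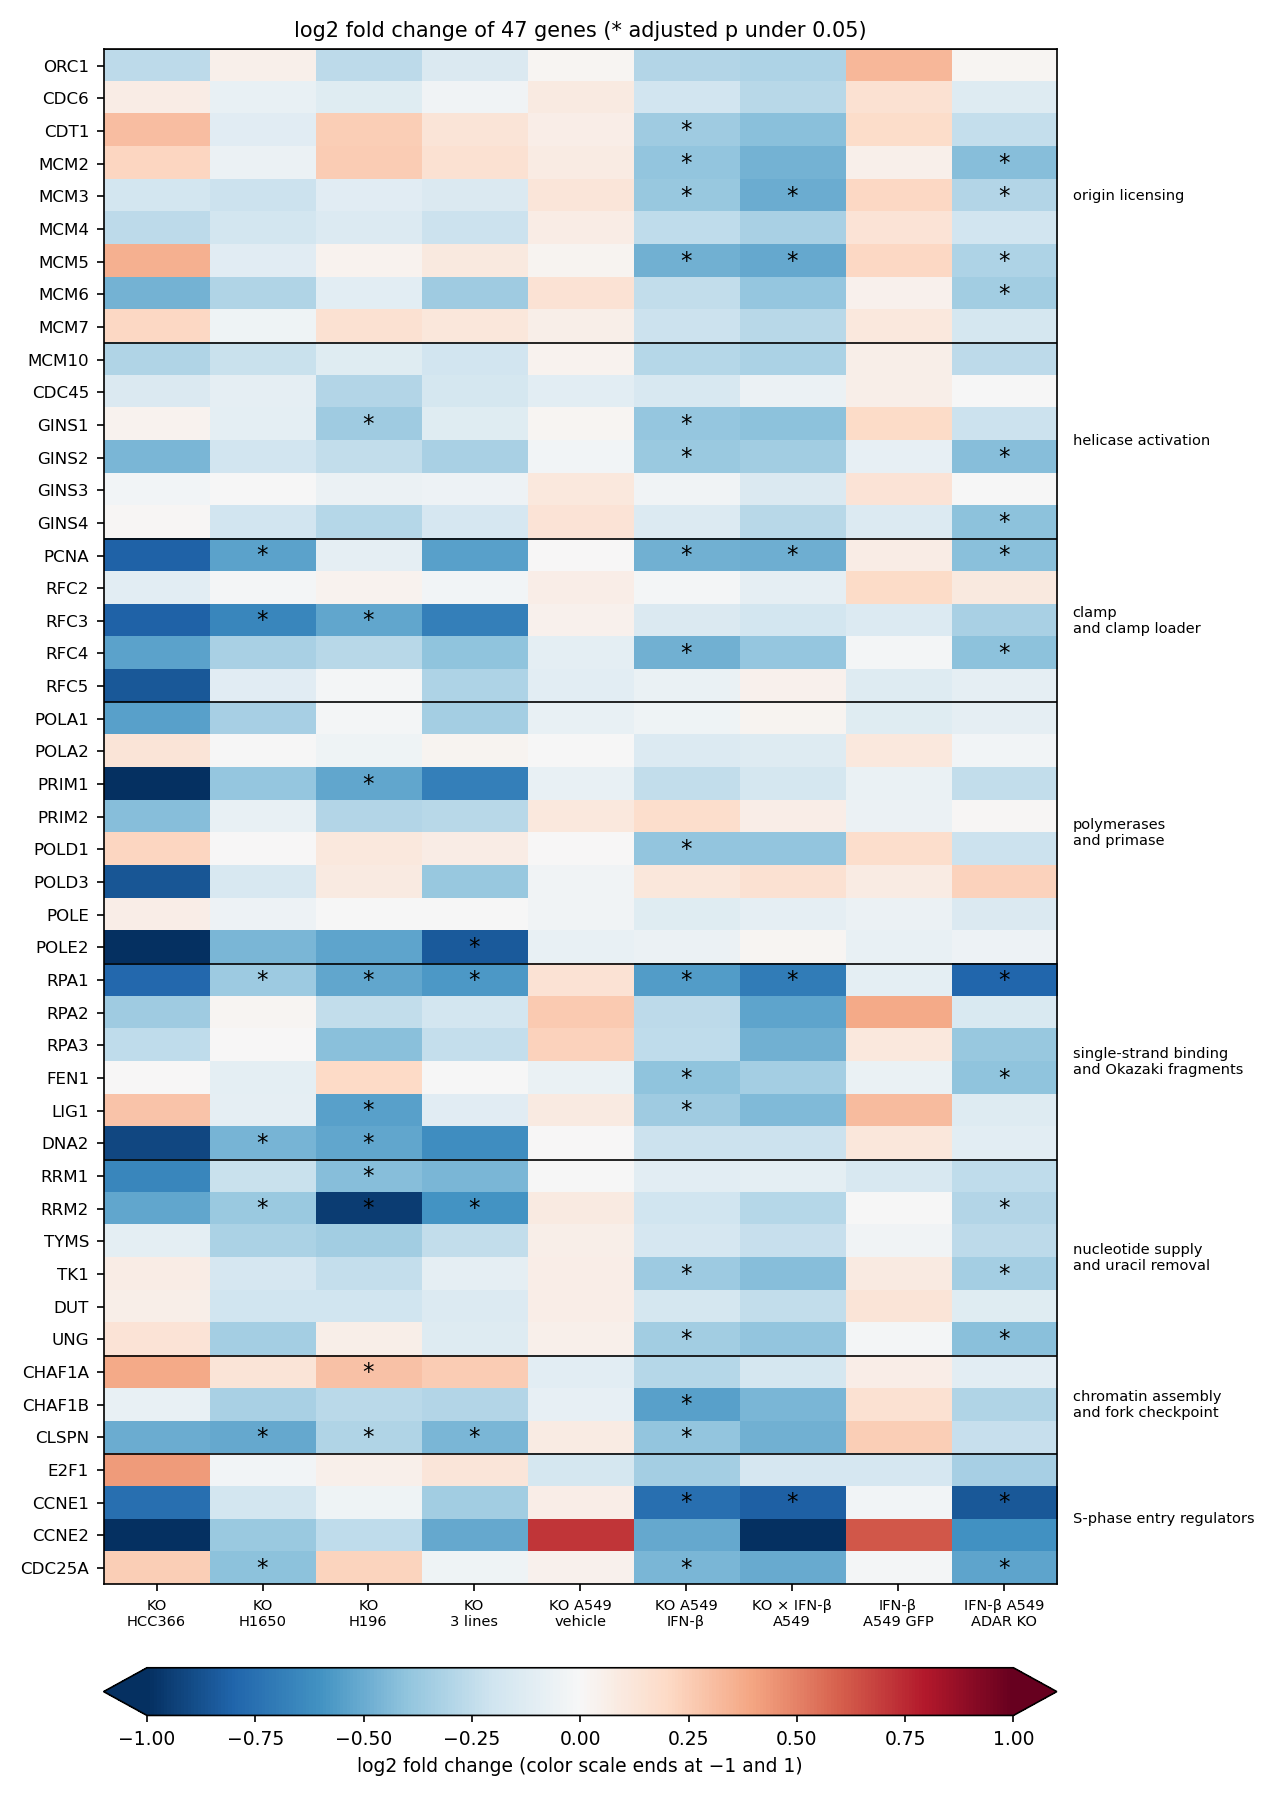
Log2 fold change of the 47 genes (rows, grouped by role) in 9 comparisons (columns; KO is *ADAR* KO against *GFP*), with red above 0, blue below 0, colors saturated at −1 and 1 and stars for an adjusted p below 0.05. The columns for A549 with vehicle and for IFN-β in A549 *GFP* hold no star, and *RPA1* has a star in 3 of the 4 columns for KO in HCC366, NCI-H1650, NCI-H196 and A549 with IFN-β.

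*RPA1* and *CLSPN* were called lower in 3 of the 4 comparisons of *ADAR* KO in HCC366, NCI-H1650, NCI-H196 and A549 with IFN-β, which share no library. Another 7 genes (*CDC25A*, *DNA2*, *GINS1*, *LIG1*, *PCNA*, *RFC3* and *RRM2*) were called lower in 2 of the 4, 14 in 1 and 24 in none. For *RPA1*, *CLSPN*, *DNA2*, *GINS1*, *LIG1*, *RFC3* and *RRM2* these tallies include the NCI-H196 call. The calls in that line rest in effect on its *GFP* sg1 library, and DESeq2 called 0 of the 47 there. Of the 10240 genes tested in all 4, 0.176% were called lower in at least 3, 2.26% in at least 2 and 16.5% in at least 1. The log2 fold change was below 0 in all 4 for 23 of the 47 (48.9%) and 15.2% of all genes. The 23 included *CCNE1*, *CCNE2*, *CDC45*, *POLE2* and *TYMS*, which were called lower in at most 1. *CLSPN* was at 71.1 and 73.6 CPM with *GFP* and 55.1 and 54.9 with *ADAR* sgRNAs in A549 with IFN-β and at 147 and 141 CPM with *GFP* and 103 and 101 with *ADAR* sgRNAs in HCC366, without overlap in either. The direction was not shared by all licensing genes. *MCM2*, *MCM5* and *CDT1* were below 0 in NCI-H1650 and A549 with IFN-β and above 0 in HCC366 and NCI-H196, where none of the 3 passed. All 3 are GC-rich (57.4%, 56.3% and 64.3%), and under the GC and length offsets their log2 fold changes were −0.19, −0.033 and −0.35 in HCC366 and 0.082, −0.098 and −0.0023 in NCI-H196.

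GC content moved with the effect within the 47 genes, and with different signs in the ADAR1-dependent lines and in A549. Transcript GC content ran from 34.6% to 64.8% over the 47, with a median of 47.7%. Its Spearman correlation with the log2 fold change across the 47 genes, which share libraries and are no replicates, was 0.81 for HCC366, 0.59 for NCI-H1650, 0.60 for NCI-H196 and −0.28 for A549 with IFN-β. Over all genes tested it was 0.59, 0.25, 0.24 and −0.33. In HCC366 the median log2 fold change was −0.54 for the 23 genes below the median GC content and 0.069 for the other 24. *POLE2* (39.7% GC), *PRIM1* (39.6%), *DNA2* (37.8%) and *RFC3* (38.03%) lie low on this scale, while *E2F1* (61.6%), *CHAF1A* (57.7%) and *MCM5* (56.3%) lie high.

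Each library's trend with GC content and transcript length over all genes was then removed by offsets in the edgeR fit. The correlations across the 47 became 0.19 for HCC366, 0.19 for NCI-H1650, 0.29 for NCI-H196 and 0.11 for A549 with IFN-β. Smaller correlations follow from how the offsets are built and are no separate result. Median log2 fold changes were −0.30, −0.23, −0.17 and −0.31, with 43, 44, 37 and 45 of 47 genes below 0. The medians over all genes moved as well, to −0.049, −0.016, −0.030 and −0.056. Relative to all genes, the median of the 47 was −0.17, −0.19, −0.13 and −0.25 without the offsets and −0.25, −0.21, −0.14 and −0.26 with them. Calls with the offsets numbered 1, 10, 8 and 28, all lower, where 2.75%, 3.05%, 6.99% and 10.2% of all genes were called lower. *POLE2* in HCC366 became −1.43 (adjusted p = 0.0539), *MCM5* in HCC366 −0.033 (adjusted p = 0.926), *PCNA* in NCI-H1650 −0.44 (adjusted p = 0.00345), *RRM2* in NCI-H196 −0.92 (adjusted p = 1.31e-13), *RPA1* in A549 with IFN-β −0.68 (adjusted p = 1.5e-05) and *CCNE1* there −0.73 (adjusted p = 0.000348). Over the 3 lines there were 11 calls with the offsets, where 4.21% of all genes were called lower. Whether GC content itself or a property that goes with it moves the levels was not tested.

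**Figure D5:**
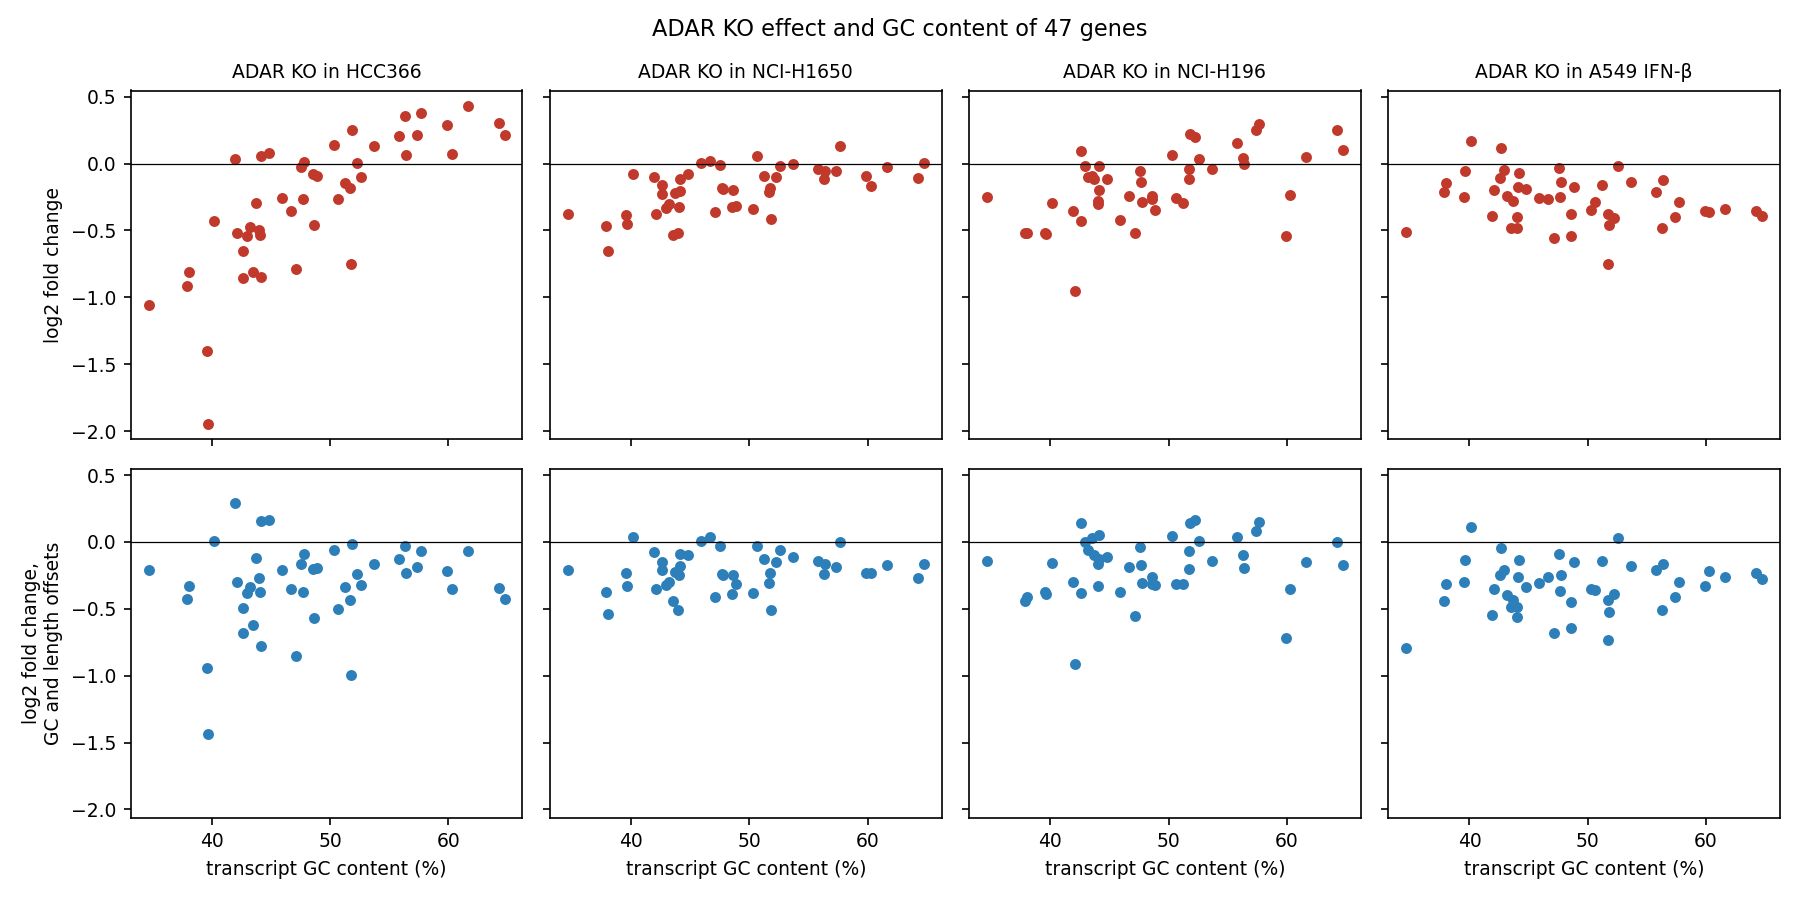
Log2 fold change after *ADAR* KO (y axis) against transcript GC content in percent (x axis) for the 47 genes in HCC366, NCI-H1650, NCI-H196 and A549 with IFN-β; the upper row is without and the lower row with offsets for GC content and length. The slope seen in HCC366 in the upper row (Spearman 0.81) is mostly gone in the lower row (0.19), since the offsets remove such trends. In the lower row 43 of 47 points of HCC366 lie below 0.

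Genes with and without an E2F-type match in the promoter had close medians in A549 with IFN-β and NCI-H1650. In A549 with IFN-β, the median log2 fold change was −0.29 for the 20 genes with a match (9 called lower) and −0.28 for the 19 without (8 called lower). The medians were −0.15 and −0.18 for NCI-H1650, −0.096 and −0.24 for NCI-H196, and 0.0047 and −0.26 in HCC366. These are descriptions of 39 genes and were not tested.

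Other lists of cell cycle genes are read against the same background shares as the 47. Of 30 further replication factors (such as *ORC2*, *DSCC1*, *EXO1* and *UHRF1*), 3 were called lower and 2 higher after *ADAR* KO in A549 with IFN-β (beside 6.19% and 10.8% of all genes), with a median of −0.062. The calls were 4 lower in NCI-H1650 (median −0.17), 6 lower in NCI-H196 (−0.14) and none in HCC366 (−0.53), with 0 higher. Of 20 mitosis genes, which follow replication in the cycle, 4 were called lower in A549 with IFN-β (median −0.19), 7 in NCI-H1650 (−0.33), 10 in NCI-H196 (−0.33) and 8 over the 3 lines (−0.45), and none higher. In HCC366, where 19 of the 20 were tested, all 19 lay below 0 and none passed (median −0.83). In the 3 ADAR1-dependent lines the median of the mitosis genes thus lay below that of the 47, and in A549 with IFN-β above it. These medians come from the fits without offsets for GC content and length. Transcript GC content ran from 35.1% (*CENPE*) to 57.1% (*PLK1*) over the mitosis genes and from 34.6% to 64.8% over the 47. The differences between lists, and whether GC content has a part in them, were not tested.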

How the data were processed

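RNA-seq libraries of 4 lung cancer lines, with 2 sgRNAs per target, were analysed. The authors depleted ribosomal RNA, made strand-specific paired-end libraries, aligned reads to hg19 with STAR, counted them per gene with HTSeq and fitted DESeq2; tool versions and the annotation release are not given in the sources used here. The deposited files hold raw counts per Ensembl gene, and HTSeq's closing summary lines were left out. Symbols matched 55727 of the 58233 identifiers, which carried 97.4% of the counts; the 47 members and the other lists were chosen with earlier results of these data known. Counts were scaled by TMM, filtered by filterByExpr and tested with edgeR 4.0.16 (R 4.3.3; quasi-likelihood F-test, Benjamini-Hochberg over all genes tested, threshold 0.05), per ADAR1-dependent line (4 libraries), in A549 (8 libraries, 4 groups) and over the 12 libraries of 3 lines. Log2 fold changes used a prior count of 0.125. Alternatives were DESeq2 1.42.0 as a test or for size factors, no filter, offsets from splines (5 degrees of freedom) on GC content and length over genes of at least 20 CPM (canonical transcripts, GENCODE on GRCh37), a replicate block, all 20 libraries in one fit, and each library left out. The fits were tested on simulated data. Named genes were *ADAR*, *CDKN1A*, 12 fixed members (*MCM2*, *MCM5*, *CDC6*, *CDC45*, *PCNA*, *POLE2*, *RRM2*, *TYMS*, *E2F1*, *CCNE1*, *CCNE2* and *CDC25A*) and called members (at most the 12 largest per direction). Per-sgRNA ratios used control reads pooled over both *GFP* libraries and an added 0.5 CPM. Depth was 62679 to 19520189 reads on genes per library. The p-values are judged against the spread between sgRNAs, which may be technical, and over the 3 lines also against differences of the effect between lines. Other members were summarised by counts and medians; those named beyond this rule (such as *GINS3*, *POLD3* and *CDT1*) were chosen after their values were seen.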

Additional observations from a re-analysis of the deposited data

Results flagged for a closer look

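In A549 cells, the effect of *ADAR* KO differed between IFN-β and vehicle for 5 of the 47 genes by the interaction test of edgeR. The difference on the log2 scale, effect with IFN-β minus effect with vehicle, was −0.82 for *CCNE1*, −0.70 for *RPA1*, −0.51 for *MCM5*, −0.49 for *MCM3* and −0.49 for *PCNA*. For *CCNE1*, a cyclin of S-phase entry, both sgRNAs lay at 19.97 and 20.2 CPM under IFN-β, and the 6 other A549 libraries between 30.4 and 40.5 CPM. For *RPA1* the 6 others lay between 148 and 176 CPM. The adjusted p of the 5 interactions with 1 library left out reached 0.152 for *RPA1*, 0.19 for *CCNE1*, 0.274 for *MCM3*, 0.309 for *MCM5* and 0.361 for *PCNA* (edgeR), with the sign kept in all 8 such fits for each gene.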

How the results depend on the processing

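Of 2298 values of single genes under the alternatives, 1860 kept direction and side of the threshold, 254 lost the call, 78 gained one, 99 changed sign with no call either way and 7 reversed. The reversals were all in NCI-H196: *DNA2* at 0.018 with DESeq2, and, without *GFP* sg1, *LIG1* at 0.065, *RFC3* at 1.63, *PRIM1* at 9.30, *DNA2* at 9.28, *GINS1* at 0.79 and *CLSPN* at 0.18, where *GFP* sg2 alone held few or no reads. Leaving out 1 library gave *LIG1* −0.86 to 0.065, *RFC3* −0.59 to 1.63, *PRIM1* −0.55 to 9.30, *DNA2* −0.55 to 9.28, *GINS1* −0.38 to 0.79 and *CLSPN* −0.33 to 0.18. With GC and length offsets the number of called members was 1 in HCC366, 28 in A549 with IFN-β, 16 for the interaction and 11 over 3 lines. Of all genes, 2.75%, 10.2%, 2.64% and 4.21% were called lower in these comparisons. For IFN-β in *GFP* cells the number was 1, beside 5.77% of all genes called lower. The median there was −0.024, a reversed sign, beside −0.083 over all genes. For IFN-β in *ADAR* KO cells the number was 34, beside 18.9% of all genes (median −0.37, beside −0.095). The NCI-H196 median was −0.17, beside −0.030 over all genes. With the replicate block and these offsets together the number was 5 in HCC366, 1 in NCI-H196 and 1 for IFN-β in *GFP* cells. It was 35 for IFN-β in *ADAR* KO cells and 17 for the interaction. The shares of all genes called lower were 6.07%, 0.0142%, 5.96%, 19.1% and 2.84% in this order. Medians were −0.18 in NCI-H196 (all genes −0.052), −0.023 for IFN-β in *GFP* cells (−0.082) and −0.37 in *ADAR* KO cells (−0.096). In A549 with vehicle the median was 0.011, beside −0.019 over all genes. In one fit of all 20 libraries the number was 9 for HCC366, 0 for NCI-H1650 and 0 for NCI-H196 (median −0.16, beside 0 over all genes). It was 3 in A549 with IFN-β, 3 for IFN-β in *ADAR* KO cells, 0 for the interaction and 11 over 3 lines. DESeq2 gave 4 in NCI-H1650 and 0 in NCI-H196 (median −0.014, beside 0.049 over all genes). Without the filter the calls numbered 1 in HCC366, 4 in NCI-H196 and 8 over 3 lines. Among all genes, 0.9%, 1.59% and 1.7% were then called lower. The cause of these changes was not tested.

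The sgRNA numbers name different guides for *GFP* and *ADAR*. Deviations of same-numbered libraries correlated at −0.33 for HCC366, −0.14 for NCI-H1650, −0.011 for NCI-H196 and −0.23 to 0.18 in A549, so no pairing by number was taken. Vehicle-treated and IFN-β-treated A549 libraries with one number carry the same sgRNA; whether they came from one transduced culture is not given in the sources used here, and their deviations correlated at −0.20 for *GFP* and 0.033 for *ADAR*. A replicate block by sgRNA gave 0 calls for IFN-β in *GFP* cells, 14 in *ADAR* KO cells and 5 for the interaction. The shares of all genes called lower were 1.37%, 8.64% and 1.07%. The replicate block by number gave 1 call in NCI-H196 and 0 over 3 lines, where 0.0355% and 0.121% of all genes were called lower. The NCI-H196 median was then −0.10, beside 0.020 over all genes. That block left the other counts within 1.5 times. A crossed block, added after the data were seen, gave 2 in HCC366 and 9 in NCI-H1650. With it, 3.6% and 4.46% of all genes were called lower. Leaving out 1 library at a time gave 0 to 25 calls in HCC366 (median −0.52 to −0.065), 2 to 5 in NCI-H1650 (−0.24 to −0.13), 0 to 12 in NCI-H196 (−0.16 to 0.47), 1 to 21 in A549 with IFN-β (−0.33 to −0.21), 0 to 0 with vehicle (0.0034 to 0.062), 0 to 1 for IFN-β in *GFP* cells (0.033 to 0.096), 2 to 20 for IFN-β in *ADAR* KO cells (−0.30 to −0.20), 0 to 11 for the interaction (−0.37 to −0.28), 0 to 9 over 3 lines (−0.24 to −0.16) and 0 to 16 for the difference between lines; the lone sample of a condition was then assumed to vary like the others. In each comparison that held a call, the most calls among the 47 came from the fit with the largest share of all genes called. The 25 calls in HCC366 came from the fit without *ADAR* sg1, which rests on *ADAR* sg2 alone. The numbers of calls in these fits are therefore not a result about the 47 alone. Depth limits NCI-H196, where *GFP* sg2 held 295 reads on the 47 genes, and HCC366, where the median standard error of the 47 was 0.37.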

Other observations

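Among 26 genes of G1/S control outside the 47, of which 24 or 25 passed the filter, *MYC* rose and *SKP2* and *CCNA2* fell after *ADAR* KO of NCI-H1650 cells, NCI-H196 cells and IFN-β-treated A549 cells; these genes were chosen after their values were seen. *MYC*, a transcription factor of cell growth, had a log2 fold change after *ADAR* KO of 0.86, adjusted p = 1.72e-08 in NCI-H1650, 0.61, adjusted p = 0.000656 in NCI-H196, 0.66, adjusted p = 1.21e-05 in A549 with IFN-β and 1.91, adjusted p = 0.0587 in HCC366 (edgeR). *SKP2*, which targets the CDK inhibitor p27 for degradation, was at −0.73, adjusted p = 2.8e-05, −0.51, adjusted p = 6.05e-05, −0.51, adjusted p = 0.00447 and −1.18, adjusted p = 0.162 in the same order (edgeR). *CCNA2*, cyclin A2, was at −0.44, adjusted p = 0.0103, −0.76, adjusted p = 4.71e-06, −0.34, adjusted p = 0.0235 and −0.42, adjusted p = 0.556 (edgeR). In A549 the interaction with IFN-β was 0.59, adjusted p = 0.00928 for *MYC*, 0.56, adjusted p = 0.0215 for *CDK6* and −0.60, adjusted p = 0.0462 for *SKP2* (edgeR).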
